A study of Mus musculus with 8 samples.

Results

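Mouse embryonic hearts were profiled by RNA sequencing, and 9 genes known from the implantation site or from blood cells of the innate immune system were followed through the libraries: *Prl8a2*, *Prl3c1*, *Prl6a1*, *S100a8*, *S100a9*, *S100a4*, *Ly6a*, *Lyz2* and *Dbi*. They were chosen by name, as 9 of the 24930 entries of the deposited table. Several of them had been seen to fall from E8.5 to E9.5 in wild type hearts and to vary between the E8.5 knockout replicates, so the stage change and that spread are given below as a description, with no test. The aim of the choice was to follow tissue other than heart in the dissections.

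Hearts were taken at embryonic day 8.5 (E8.5) and 9.5 (E9.5) from 2 genotypes on a C57BL/6 background, with 2 biological replicates in each of the 4 groups. The conditional knockouts (cKO) were Mesp1Cre/+; Dgcr8-/- by their labels, and per the study's methods were Mesp1Cre/+; Dgcr8 loxP/loxP; Rosa26 mT/mG/+. The animals labelled wild type (WT) were Dgcr8 loxP/loxP; Rosa26 mT/mG/+ without a Cre allele, so that both genotypes carried the floxed *Dgcr8* alleles and the membrane reporter, and the groups also differed by the Cre allele. *Dgcr8* encodes a partner of Drosha in the processing of primary microRNA transcripts. Cre driven by *Mesp1*, an early mesoderm gene, removes it only from the progeny of *Mesp1*-expressing cells of the embryo. The number of hearts pooled into a library was not given in the sources used here.

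At these stages the mouse embryo lies within the decidua, uterine stroma that the mother transforms after implantation, and it is separated from it by trophoblast cells of embryonic origin. Both tissues express members of the prolactin family, a cluster of hormone genes that is expanded in rodents and is best known from the decidua and placenta. The S100 genes encode small calcium-binding proteins. *S100a8* and *S100a9* are best known as the 2 subunits of calprotectin, the abundant cytosolic protein of neutrophils, and loss of *S100a8* is known to end mouse development early after implantation. *Lyz2* encodes the lysozyme of macrophages and granulocytes, *Ly6a* (Sca-1) a membrane protein of blood stem cells, endothelium and other cells, and *Dbi* the acyl-CoA-binding protein, which most cells make.

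The 3 prolactin genes lay near each other on chromosome 13 and the 3 S100 genes near each other on chromosome 3. Upstream sequence from RefSeq is shown for 5 of these genes, since neighbours there were listed at very different levels. Each line gives the 60 bases before the annotated start on GRCm38.p6, read 5′ to 3′ along the gene, with matches to TATAAA or to its reverse complement TTTATA in capitals.
Prl3c1 (chr13:27196600-27196659, plus strand): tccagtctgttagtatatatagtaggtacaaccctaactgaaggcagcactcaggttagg
Prl6a1 (chr13:27312567-27312626, plus strand): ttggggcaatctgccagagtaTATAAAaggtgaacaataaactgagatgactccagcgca
S100a4 (chr3:90603710-90603769, plus strand): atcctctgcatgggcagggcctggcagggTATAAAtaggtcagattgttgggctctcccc
S100a8 (chr3:90669011-90669070, plus strand): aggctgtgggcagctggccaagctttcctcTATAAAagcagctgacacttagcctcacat
S100a9 (chr3:90695722-90695781, minus strand): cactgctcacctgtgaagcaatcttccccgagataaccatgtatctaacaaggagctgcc

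The letters TATAAA began 30 bases before the start of *S100a8*, 31 bases before that of *S100a4* and 39 bases before that of *Prl6a1*. Upstream sequences of 7 of the 9 genes were searched (*Lyz2* and *Dbi* in addition to those shown), and 3 of these 7 held a match. Over all 32851 promoters in the table, 3.92% held a match in the same 60 bases. The 2 S100 genes with a match reached 100 FPKM or more in single E8.5 libraries, while *Prl6a1* stayed below 3 FPKM with a match and *Prl3c1* reached 40.9 FPKM without one. Only these exact letters were searched, and near forms such as the tatatata upstream of *Prl3c1* were not counted.

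Values are FPKM, fragment numbers corrected for transcript length and library size, as the authors deposited them. Relative depth, read from genes of very low FPKM, ranged from 1 to 1.45 between libraries, and the absolute depth is unknown, so nothing more than the listed value is known of a gene at 0. Cardiac identity was checked with 10 cardiomyocyte genes, all of them above the expression filter of a mean of 1 FPKM. Their summed level ranged from 24299 FPKM for E8.5 WT replicate 1 to 88847 FPKM for E9.5 cKO replicate 2. Median FPKM of the 10018 tested genes fell with stage, from between 7.62 and 9.90 at E8.5 to between 3.85 and 4.497 at E9.5, and with this shift 80.1% of tested genes in WT and 62.7% in cKO hearts lay lower at E9.5 with no overlap of the replicates. *Dgcr8* was 7.10 and 8.60 FPKM for E8.5 WT, 1.64 and 4.67 FPKM for E8.5 cKO, 3.49 and 3.23 FPKM for E9.5 WT, and 1.15 and 1.77 FPKM for E9.5 cKO hearts.

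The E8.5 libraries stood apart from each other in these genes. E8.5 cKO replicate 2 was the highest of all 8 libraries for 7 of the 9 genes, and E8.5 cKO replicate 1 was the lowest of the 4 E8.5 libraries for all 9. The share of all tested genes with these ranks was not computed, so nothing is read from the rank counts here or below. *Dbi*, which most cells make, held between 52.9% and 99.2% of the summed FPKM of the 9 genes, so the other 8 were also summed without it. These 8 genes made up 0.701% of the FPKM summed over loci of at least 300 bp in E8.5 cKO replicate 2, 0.146% and 0.171% in the E8.5 WT libraries, and 0.00226% in E8.5 cKO replicate 1. In the 4 E9.5 libraries they made up 0.000973% to 0.00195%. With *Dbi* the share was 1.87% in E8.5 cKO replicate 2 and 0.0980% in E8.5 cKO replicate 1. A bulk library cannot tell fewer cells of a type from less RNA per cell.

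*Prl8a2* (chromosome 13, 27345673 to 27354215, protein-coding) encodes a decidual prolactin-related protein. It was 448.8 and 1141 FPKM for E8.5 WT hearts (replicates 1 and 2), 9.95 and 5104 FPKM for E8.5 cKO, 1.23 and 5.09 FPKM for E9.5 WT, and 2.08 and 0.746 FPKM for E9.5 cKO hearts. All 4 E8.5 libraries lay above all 4 E9.5 libraries, and the E8.5 cKO replicates lay on either side of the WT replicates, 513 times apart. *Prl3c1* (chromosome 13, 27196660 to 27203750), another prolactin-like hormone gene of the decidua, was 8.50 and 18.2 FPKM for E8.5 WT and 0.505 and 40.9 FPKM for E8.5 cKO hearts. It was listed at 0 in the 4 E9.5 libraries. *Prl6a1* (chromosome 13, 27312627 to 27319252) was low, at 0.530 and 0.715 FPKM for E8.5 WT, 0 and 2.44 FPKM for E8.5 cKO, 0 in both E9.5 WT libraries, and 0.0884 and 0 FPKM for E9.5 cKO hearts. The 3 genes had one order at E8.5, from cKO replicate 2 through WT replicate 2 and WT replicate 1 to cKO replicate 1. *Prl6a1* did not pass the expression filter and was not tested.

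*S100a8* (chromosome 3, 90669071 to 90670034) was 306.1 and 67.5 FPKM for E8.5 WT and 3.84 and 200.9 FPKM for E8.5 cKO hearts. At E9.5 it was 0 and 0.806 FPKM for WT and 0.629 and 0 FPKM for cKO hearts. Here WT replicate 1 was the highest library and WT replicate 2 only the third, unlike the prolactin genes. Its partner *S100a9* (chromosome 3, 90692630 to 90695721) was 0.426 and 1.53 FPKM for E8.5 WT, 0 and 1.81 FPKM for E8.5 cKO, and listed at 0 in all 4 E9.5 libraries. On the FPKM scale, which is per length, *S100a8* was 719, 44.2 and 111 times as high as *S100a9* in the 3 E8.5 libraries where both were above 0. *S100a9* did not pass the filter. *S100a4* (chromosome 3, 90603770 to 90606045), known from fibroblasts and leukocytes, was 125.9 and 79.7 FPKM for E8.5 WT, 0.879 and 184.7 FPKM for E8.5 cKO, 0 and 0.680 FPKM for E9.5 WT, and 0.400 and 0.184 FPKM for E9.5 cKO hearts.

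*Ly6a* (chromosome 15, 74994877 to 74998031) was 161.8 and 46.7 FPKM for E8.5 WT, 1.86 and 95.0 FPKM for E8.5 cKO, 0 and 0.660 FPKM for E9.5 WT, and 1.01 and 0.435 FPKM for E9.5 cKO hearts. It had the same order of E8.5 libraries as *S100a8*. *Lyz2* (chromosome 10, 117277541 to 117282272) was 35.5 and 18.2 FPKM for E8.5 WT and 1.96 and 61.1 FPKM for E8.5 cKO hearts. At E9.5 it was 8.03 and 9.28 FPKM for WT and 10.7 and 14.3 FPKM for cKO hearts. *Lyz2* thus stayed above 8 FPKM in every E9.5 library, each of which lay above E8.5 cKO replicate 1. *Dbi* (chromosome 1, 120113280 to 120121096) was 1220 and 2275 FPKM for E8.5 WT, 805.5 and 9459 FPKM for E8.5 cKO, 1212 and 774.5 FPKM for E9.5 WT, and 267.3 and 454.6 FPKM for E9.5 cKO hearts. It was the one gene of the 9 at 267.3 FPKM or more in every library.

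**Figure D1:**
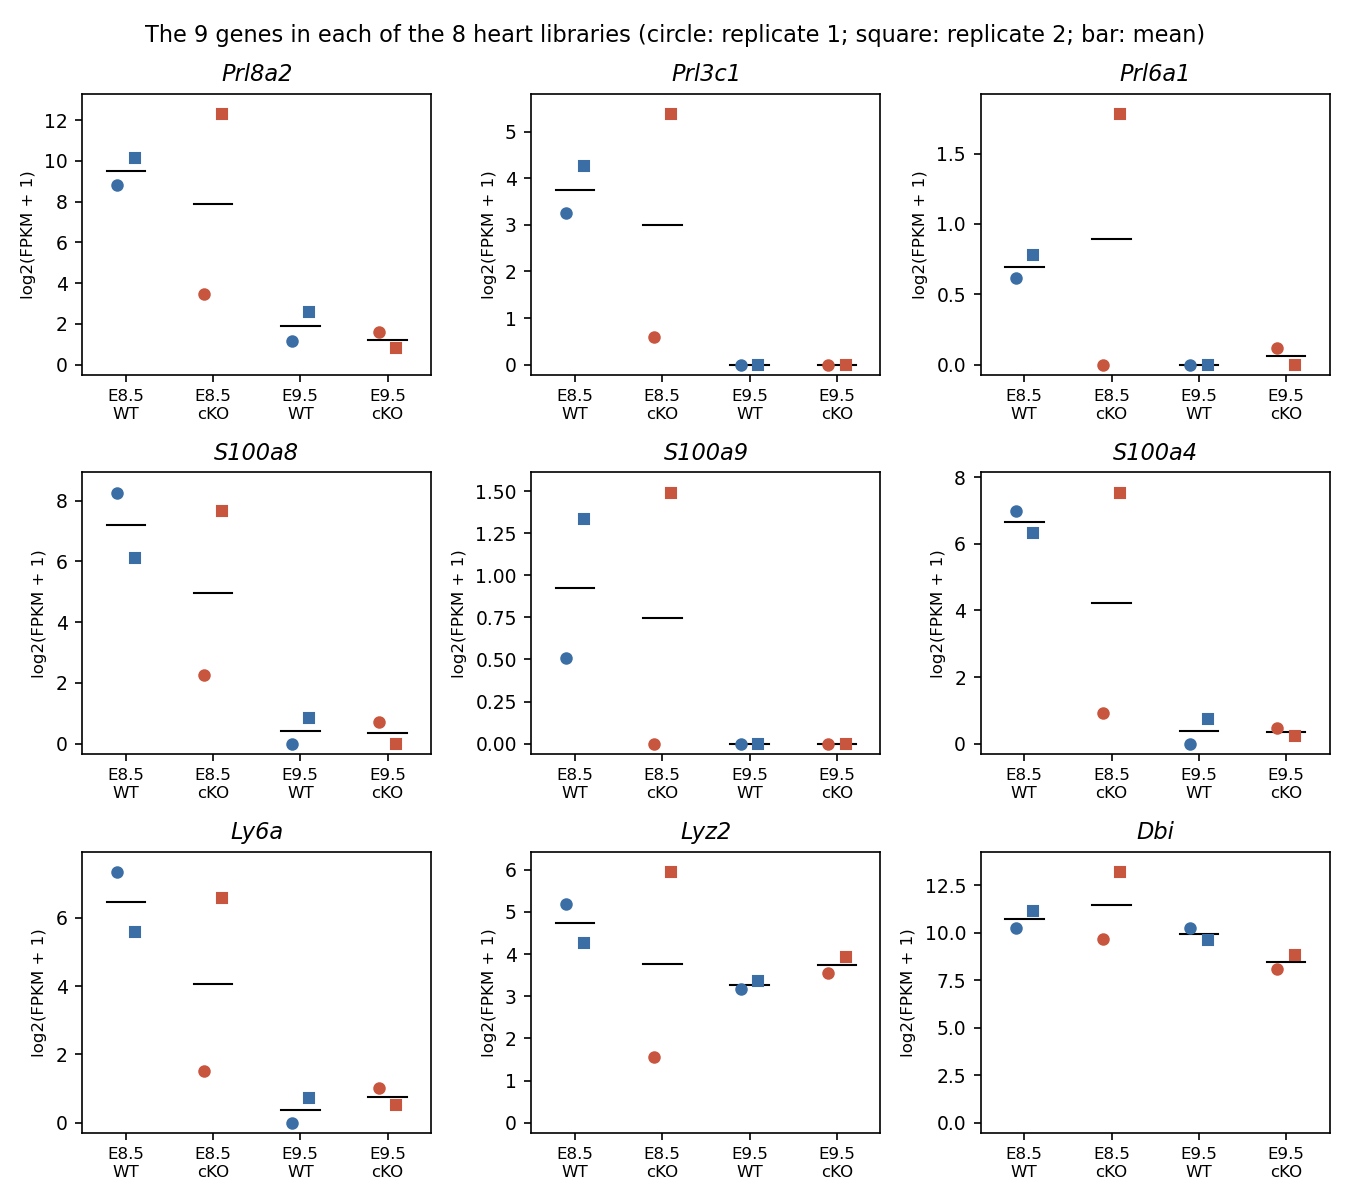
Levels of the 9 genes as log2(FPKM + 1) on the vertical axes, by group on the horizontal axes; circles are replicate 1, squares replicate 2, bars the mean of 2 libraries, blue WT and red cKO. The red square of E8.5 cKO replicate 2 is the highest point for 7 genes, the red circle of E8.5 cKO replicate 1 lies below the other E8.5 points for all 9, and *Lyz2* and *Dbi* stay well above 0 at E9.5.

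From E8.5 to E9.5 the 9 genes were lower in WT hearts with no overlap of the replicates, beside the 80.1% of tested genes given above, and 6 of 9 were so in cKO hearts, beside 62.7%. Nothing is read from these counts, because this contrast chose the genes. The difference of the group means on the log2(FPKM + 1) scale was -7.60 for *Prl8a2* in WT and -6.67 in cKO hearts, -6.10 and -3.28 for *Ly6a*, -6.75 and -4.61 for *S100a8*, and -6.29 and -3.86 for *S100a4*. *Prl3c1* differed by -3.76 and -2.99, with all E9.5 libraries at 0. The size of a difference from a level near 0 depends on the pseudocount: with 0.1 in place of 1 the WT differences were -6.97 for *Prl3c1*, -8.90 for *S100a8*, -8.49 for *S100a4* and -8.30 for *Ly6a*, and the cKO differences were -5.64, -6.70, -5.16 and -4.14 for the same genes. With the pseudocount of 1 the cKO differences rested on E8.5 cKO replicate 2, without which they were -2.24 for *Prl8a2*, -0.75 for *Ly6a*, -1.92 for *S100a8*, -0.55 for *S100a4* and -0.59 for *Prl3c1*. Without E8.5 cKO replicate 1 they were -11.1, -5.82, -7.31, -7.17 and -5.39 for the same genes. The differences of *Lyz2* as deposited were -1.46 in WT and -0.02 in cKO hearts. They became -0.52 and 0.64 with median-ratio scaling and -0.47 and 0.59 with quantile normalization, and the cKO difference was 0.15 with a pseudocount of 0.1, -2.22 without E8.5 cKO replicate 1 and 2.18 without E8.5 cKO replicate 2. *Dbi* differed by -0.78 in WT and -2.98 in cKO hearts. Its WT difference turned to 0.22 with median-ratio scaling and was -1.34 with quantile normalization. Its cKO difference was -4.76 without E8.5 cKO replicate 1 and -1.21 without E8.5 cKO replicate 2. With single WT libraries left out, the WT differences ran from -8.33 to -6.88 for *Prl8a2*, -7.84 to -5.67 for *S100a8* and -6.98 to -5.21 for *Ly6a*. They ran from -6.66 to -5.91 for *S100a4*, -4.26 to -3.25 for *Prl3c1*, -1.92 to -0.996 for *Lyz2* and -1.23 to -0.332 for *Dbi*. The median of the 9 genes was -3.76 in WT and -2.99 in cKO hearts, beside -0.84 and -0.64 over all tested genes as deposited. Over all tested genes it was -0.04 and -0.05 after median-ratio scaling. With that scaling *Prl3c1*, the gene at both medians as deposited, differed by -3.18 in WT and -2.84 in cKO hearts.

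The order of the E8.5 libraries differed between the genes. *Prl8a2* reached 22.4% of its highest level in WT replicate 2 and 8.79% in WT replicate 1, whereas *S100a8* reached 22.1% in WT replicate 2 and had its highest level in WT replicate 1. The ratio of *S100a8* to *Prl8a2* was 0.682, 0.0592, 0.386 and 0.0394 in WT replicates 1 and 2 and cKO replicates 1 and 2, a 17.3-fold range. The ratio of *S100a8* to *Ly6a* was 1.89, 1.44, 2.07 and 2.11 in the same libraries, a 1.46-fold range. The ratio of *Ly6a* to *Prl8a2* had a 19.4-fold range. That of *Prl3c1* to *Prl8a2*, which share one order of libraries, had a 6.34-fold range, and that of *S100a4* to *Prl8a2* a 7.75-fold range. The ratio of *Dbi* to *Prl8a2* was 2.72, 1.99 and 1.85 in the 3 libraries with high *Prl8a2* and 81.0 in cKO replicate 1.

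**Figure D2:**
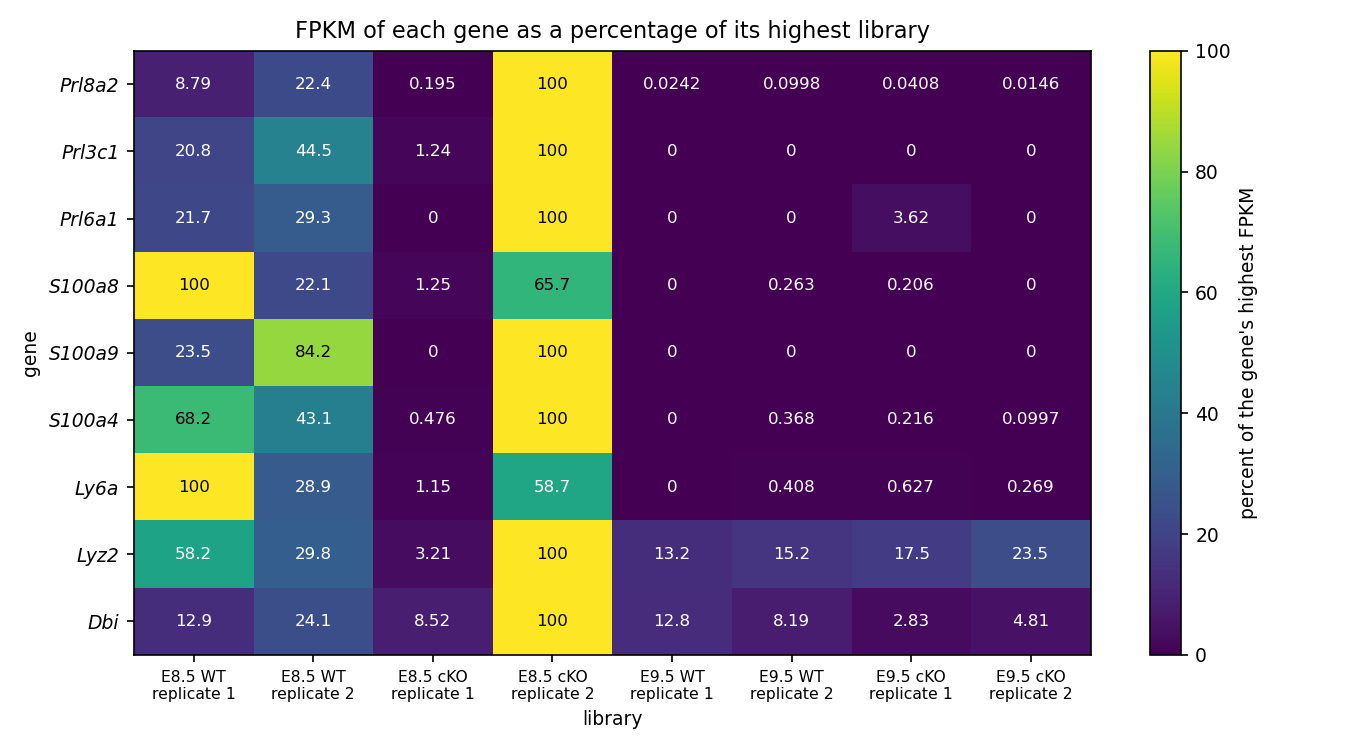
FPKM of each gene (rows) in each library (columns) as a percentage of the highest library of that gene, given by colour and by the printed percentage. *S100a8* and *Ly6a* have their 100% in E8.5 WT replicate 1 and the other 7 genes in E8.5 cKO replicate 2, while E8.5 cKO replicate 1 is at 8.52% for *Dbi* and at 3.21% or less for the other genes.

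Between the 2 E8.5 cKO replicates 7 of the 9 genes differed by at least 4-fold on the log2(FPKM + 1) scale, all higher in replicate 2, beside 2.05% of tested genes. This spread was also known when the genes were chosen. *Prl6a1* and *S100a9*, which were listed at 0 in replicate 1, did not reach that difference on this scale. Between the 2 E8.5 WT replicates the differences were smaller. Replicate 2 was at 2.54 times replicate 1 for *Prl8a2*, at 1.86 times for *Dbi*, at 0.632 times for *S100a4* and at 0.220 times for *S100a8*.

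The effect of *Dgcr8* deletion on these genes was then compared at E9.5. By limma, 0 of the 7 tested genes passed (adjusted p under 0.05 over 10018 genes and at least 1.5-fold), beside 0.18% of tested genes, and 0 had an unadjusted p under 0.05, beside 15.1% with 1.5-fold. *Dbi* was 993 ± 309 FPKM for WT and 361 ± 132 FPKM for cKO hearts (SD, n = 2), a log2 difference of -1.47 (SE 0.98, limma adjusted p 0.527). The model shares one spread over the groups, and without E8.5 cKO replicate 1 or 2 this adjusted p was 0.120 or 0.118, and 0.167 with the E9.5 libraries alone. Over the alternatives run it lay between 0.118 and 0.929. Both cKO libraries lay below both WT libraries, as in 31.1% of tested genes. *Lyz2* was 8.66 ± 0.884 and 12.5 ± 2.59 FPKM, a log2 difference of 0.47 (SE 1.15, adjusted p 0.902), with both cKO libraries above both WT libraries, as in 21% of tested genes. *Prl8a2*, *S100a8*, *S100a4* and *Ly6a* overlapped between the genotypes and had log2 differences of -0.67, -0.07, -0.01 and 0.40, that of *Ly6a* being 1.49 with a pseudocount of 0.1 and 0.0347 without E9.5 WT replicate 1. *Prl3c1* was listed at 0 in all E9.5 libraries, which gives no difference. *Prl3c1*, *S100a4*, *S100a8* and *Ly6a* passed the expression filter only through the E8.5 libraries, with E9.5 group means of 0.725 FPKM or less, levels that left little room for a call at E9.5, so nothing is read from the count for them. The WT libraries of this comparison were among those that chose the genes.

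At E8.5, 0 of the 7 genes passed, beside 0.00998% of tested genes, and 0 had an unadjusted p under 0.05, beside 7.14%. All 7 overlapped between the genotypes, where 2.54% of tested genes lay wholly higher and 40.1% wholly lower in cKO hearts. *Ly6a* was 104 ± 81.4 FPKM for WT and 48.4 ± 65.9 FPKM for cKO hearts (SD, n = 2), a log2 difference of -2.41 (SE 1.38, limma adjusted p 0.596). *S100a4* differed by -2.44 (SE 1.69, adjusted p 0.617), with 103 ± 32.7 and 92.8 ± 130 FPKM, and *S100a8* by -2.21 (SE 1.496, adjusted p 0.613), with 187 ± 169 and 102 ± 139 FPKM. *Prl8a2* had a log2 difference of -1.60 (SE 2.30, adjusted p 0.785) although its mean FPKM was higher in cKO (2557 ± 3602) than in WT hearts (795 ± 489), since 1 of its cKO libraries was the highest and the other the lowest. *Lyz2*, *Prl3c1* and *Dbi* differed by -0.97, -0.77 and 0.73, with adjusted p-values of 0.742, 0.812 and 0.773.

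The E8.5 result rested on single libraries. The high E8.5 WT levels and the spread of the cKO replicates were both known when the genes were chosen, so what follows describes that dependence and is no test of the genotype. Without cKO replicate 2, 4 of the 7 genes were called lower in cKO hearts by limma, beside 0.499% of tested genes. These were *S100a4* (log2 difference -5.75), *Prl8a2* (-6.03), *Prl3c1* (-3.17) and *Lyz2* (-3.16), while *Ly6a* (-4.95) and *S100a8* (-4.90) did not pass. Without cKO replicate 1, 0 of the 7 genes were called, beside 0.21% of tested genes, and the log2 differences of *Prl8a2* (2.83), *S100a4* (0.88) and *Lyz2* (1.23) lay above 0. The log2 differences without cKO replicate 1 also lay above 0 for *Dbi* (2.50), *Prl3c1* (1.63), *S100a8* (0.478) and *Ly6a* (0.123). Nothing is read from either count. In both of these fits the lone cKO library was taken to vary as the other groups do. The difference of the genotype effect between stages passed for 0 of the 7 genes, beside 0.0399% of tested genes (limma, lowest unadjusted p 0.150, for *Dbi*). Without E8.5 cKO replicate 2 it passed for 1 gene, *S100a4*, beside 0.19% of tested genes.

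**Figure D3:**
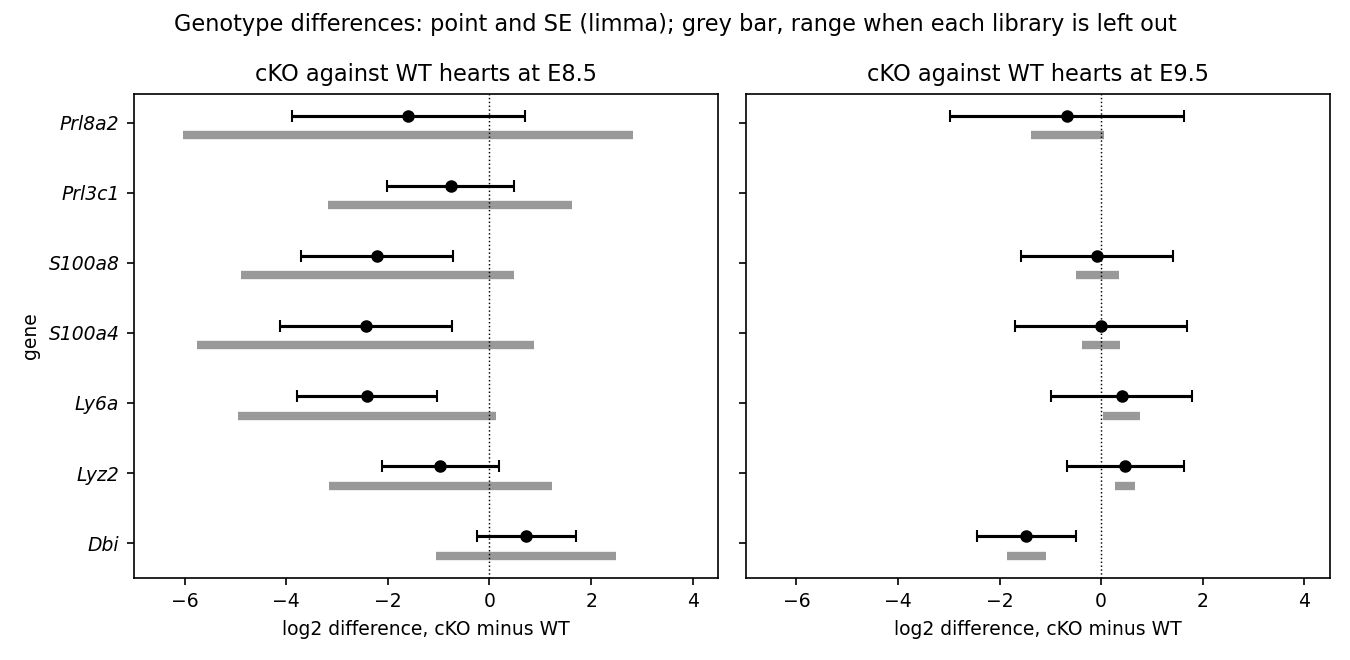
Log2 differences between cKO and WT hearts (horizontal axis, cKO minus WT, on log2(FPKM + 1)) for the tested genes at E8.5 (left) and E9.5 (right); points and bars are the limma estimate and its SE, grey bars the range when each library was left out in turn. At E8.5 all 7 grey bars cross 0, and for *Prl8a2* the bar runs from -6.03 to 2.83; at E9.5 that of *Dbi* runs from -1.85 to -1.09, and *Prl3c1* has no bar because it was listed at 0.

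Relatives of the genes were examined next. The table held 24 other prolactin family genes, of which 14 were above 1 FPKM in some library. All 14 were highest in E8.5 cKO replicate 2, and 13 were lowest at E8.5 in cKO replicate 1, the exception being *Prl2c4*. Their summed level was 112 and 286 FPKM for E8.5 WT, 5.27 and 2919 FPKM for E8.5 cKO, and 2.47 to 21.96 FPKM in the E9.5 libraries. Among them *Prl2c3*, a proliferin gene of trophoblast giant cells, was 25.4 and 93.4 FPKM for E8.5 WT and 2.14 and 1291 FPKM for E8.5 cKO hearts. *Prl3d1*, placental lactogen I of the same cells, was 20.5, 58.7, 0.466 and 347.4 FPKM in these libraries. The Prl2c and Prl3d genes are close copies, so the share of each is uncertain. *Prl*, the pituitary hormone gene, was listed at 0 in all 8 libraries. Of the 12 tested, 0 were called between the genotypes at either stage by limma, beside 0.18% of tested genes at E9.5 and 0.00998% at E8.5. Likewise 0 had an unadjusted p under 0.05 with 1.5-fold, beside 15.1% and 7.14%. Several, such as *Prl5a1* and *Prl8a9*, passed the filter only through the E8.5 libraries and were near 0 at E9.5, so nothing is read from these counts.

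Of 14 other S100 genes, 7 passed the filter. *S100a6* was 262 and 256 FPKM for E8.5 WT, 6.67 and 1468 FPKM for E8.5 cKO, and 4.91 to 13.2 FPKM at E9.5, which is the order of *S100a4*. *S100a1*, a cardiac member, was 89.7 and 162 FPKM for E8.5 WT and 154 and 117 FPKM for E8.5 cKO hearts, with 29.0 FPKM or more at E9.5, and *S100a10* was at 167 FPKM or more in every library, so the fall to near 0 was not shared by these S100 genes. Of 9 other Ly6 genes, 3 passed. *Ly6c1*, a gene of endothelium and some leukocytes, was 86.4 and 26.0 FPKM for E8.5 WT, 0.938 and 78.7 FPKM for E8.5 cKO, and at most 0.515 FPKM at E9.5, and *Ly6g*, a granulocyte gene, was listed at 0 throughout. *Ly6a* and *Ly6c1* belong to a family of close copies, so their values are uncertain. *Lyz1*, the lysozyme of the intestine and the close copy of *Lyz2*, stayed between 0.0984 and 2.25 FPKM. Of 5 other acyl-CoA-binding genes none exceeded 18.2 FPKM, the level of *Acbd6* in E8.5 cKO replicate 2.

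The names decidual and myeloid were checked against marker lists that held none of the 9 genes. The whole decidual stroma list had sums of 809, 1104, 768 and 1873 FPKM in the 4 E8.5 libraries and of 527 to 716 FPKM at E9.5. *Cryab*, which heart muscle also expresses, was at 505.6 FPKM or more in every library and carried these sums. Without it, a choice made after its values were seen, the sums were 163 and 134 FPKM for E8.5 WT, 20.7 and 418 FPKM for E8.5 cKO, and 9.16 to 21.7 FPKM at E9.5. *Cyp11a1*, the first enzyme of steroid synthesis, was 47.7 and 60.3 FPKM for E8.5 WT and 0.433 and 232.6 FPKM for E8.5 cKO hearts. *Tdo2*, a tryptophan-degrading enzyme of decidual cells, was 58.6, 20.5, 4.61 and 67.6 FPKM in these libraries. *Hoxa10*, a uterine patterning gene, was 8.10, 3.19, 0.160 and 8.59 FPKM, and at most 0.0993 FPKM at E9.5. *Cyp11a1*, the largest part of the sum of 418 FPKM, had the order of E8.5 libraries of the prolactin genes. *Tdo2* and *Hoxa10*, higher in WT replicate 1 than in WT replicate 2, had that of *S100a4*. Without *Cryab*, 10 list genes exceeded 1 FPKM in some library. Of these, 7 were highest in E8.5 cKO replicate 2, and 3 (*Esr1*, *Hoxa11* and *Dio3*) in E8.5 WT replicate 1. *Sct* was higher in E8.5 cKO replicate 1 (10.8 FPKM) than in WT replicate 1 (8.68 FPKM), and *Bmp2* was 10.8 FPKM in E9.5 WT replicate 1. *Pgr* and *Wnt4* never exceeded 1 FPKM. The 17 trophoblast genes summed to 142 and 357 FPKM for E8.5 WT, 30.5 and 3126 FPKM for E8.5 cKO, and 10.4 to 40.4 FPKM at E9.5, with *Tpbpb* and *Ctsq* at 0 throughout. Of its 11 genes that passed the filter, 8 are prolactin family members.

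Most of the neutrophil list was near 0 beside *S100a8*. *Elane*, *Camp* and *Ngp*, granule protein genes of the lineage, were listed at 0 in all 8 libraries, and 9 of the 12 genes never exceeded 1 FPKM. *Cxcr2*, at 21.0 to 79.2 FPKM in every library, carried the sum. Without it, a choice made after its values were seen, the list summed to 4.09 and 3.17 FPKM for E8.5 WT, 0.728 and 5.49 FPKM for E8.5 cKO, and at most 0.647 FPKM at E9.5, while *S100a8* reached 306.1 FPKM. *Mmp9*, a matrix protease gene and the only one of these 11 genes to pass the filter, was 2.81, 1.26, 0.475 and 3.90 FPKM in the 4 E8.5 libraries and at most 0.147 FPKM at E9.5. *Retnlg*, another gene of the list, was 1.06 FPKM in E8.5 WT replicate 2, 0.708 FPKM in E8.5 cKO replicate 2 and 0 elsewhere. The part of neutrophils in the level of *S100a8* was not tested. The macrophage list summed to 72.1 and 18.2 FPKM for E8.5 WT, 4.14 and 41.4 FPKM for E8.5 cKO, and 2.003 to 4.91 FPKM at E9.5. Its largest members were *Fcer1g* and *Tyrobp*, signalling adaptors that natural killer cells also use, at 32.7 and 19.5 FPKM for E8.5 WT replicate 1. Of its 14 measured genes, 10 exceeded 1 FPKM in some library, and 9 of these 10 were lowest at E8.5 in cKO replicate 1. *Cd68* was 3.75, 4.64, 1.10 and 6.23 FPKM in the 4 E8.5 libraries, and *Csf1r*, the receptor for the growth factor of macrophages, was 1.14, 1.33, 0.285 and 3.003 FPKM. *Adgre1* and *Cx3cr1* never exceeded 1 FPKM. At E9.5 *Csf1r* was 0.162 to 0.283 FPKM, with *Lyz2* at 8.03 to 14.3 FPKM.

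E8.5 WT replicate 1 also differed from the other libraries in genes of uterine natural killer cells, the maternal lymphocytes of the decidua. The list of 13 genes summed to 529 FPKM in this library and to 0.532 to 2.88 FPKM in the other 7, and the 12 of its 13 genes that exceeded 1 FPKM in any library were highest there. *Gzmd* was 115.6 FPKM, *Gzmf* 103.0 FPKM and *Gzmc* 97.1 FPKM in that library, and each was below 1 FPKM elsewhere. The granzymes c to g are close copies, so their individual values are uncertain. This was also the highest library for *S100a8* and *Ly6a*, and the part of these cells in the levels of both genes was not tested. In E8.5 cKO replicate 2, *S100a8* was 200.9 FPKM and *Ly6a* 95.0 FPKM with this list at 2.88 FPKM. The uterine epithelium list stayed at 3.88 FPKM or less.

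Blood and yolk sac lists were summed as well, since both tissues adjoin the heart at these stages. Adult globin genes summed to 3811 and 7013 FPKM for E8.5 WT and 4451 and 14841 FPKM for E8.5 cKO hearts, of which the alpha globin *Hba-a1* was 2002, 4329, 4099 and 6862 FPKM. The 3 adult beta globin genes were all highest in E8.5 cKO replicate 2 and, within E8.5, lowest in cKO replicate 1, as were most of the 9 genes. *Hbb-bt* was 516.7, 647.0, 84.3 and 1886 FPKM in the 4 E8.5 libraries. These genes are close copies, so the share of each is uncertain. Embryonic globin genes, of primitive red cells, summed to 7742 and 23742 FPKM for E8.5 WT and 35431 and 9719 FPKM for E8.5 cKO hearts, and were thus highest at E8.5 in the library where the 9 genes were lowest. Yolk sac endoderm genes had sums of 560, 1838, 4840 and 1455 FPKM in the same libraries, with their highest E8.5 level again in cKO replicate 1. Platelet and megakaryocyte genes summed to 4.74 to 8.46 FPKM at E8.5 and to 9.05 to 67.2 FPKM at E9.5, where 7 of the 9 genes were at 5.09 FPKM or less. The part of these tissues in the levels of the 9 genes was not tested.

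**Figure D4:**
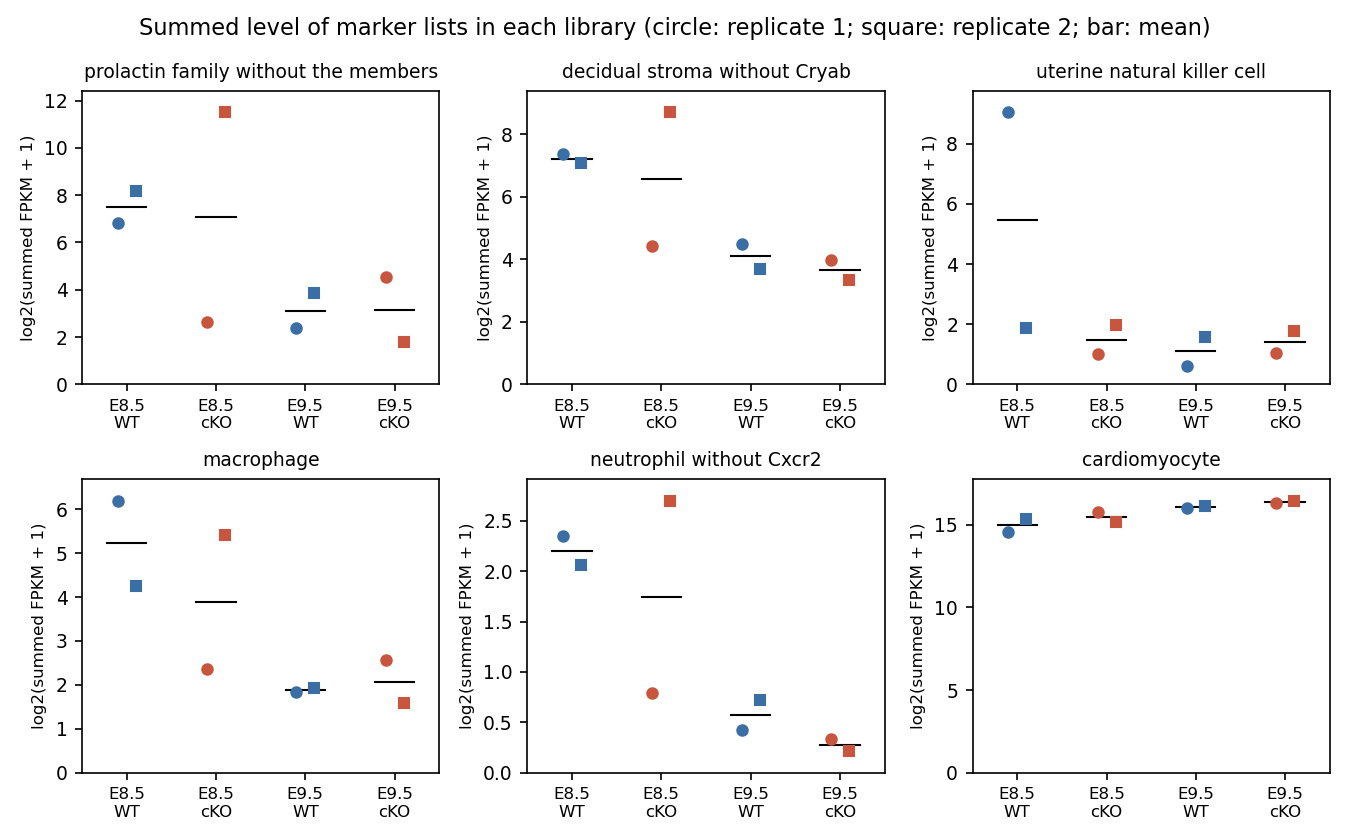
Summed FPKM of 6 marker lists as log2(sum + 1) on the vertical axes, by group on the horizontal axes; circles are replicate 1, squares replicate 2, bars the mean of 2 libraries. The prolactin family and decidual stroma lists (the latter without *Cryab*) are highest in E8.5 cKO replicate 2, the natural killer cell list stands at 529 FPKM for E8.5 WT replicate 1 alone, the neutrophil list without *Cxcr2* stays below 6 FPKM, and cardiomyocyte genes are high in every library.

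Transcripts of the sex chromosomes were read as library checks. *Xist* is the RNA of the inactive X chromosome, made by female cells of mother and embryo alike. *Xist* was 4.19 and 0.146 FPKM for E8.5 WT and 3.60 and 3.66 FPKM for E8.5 cKO hearts. At E9.5 it was 1.27 and 0.0412 FPKM for WT and 0.0132 and 1.89 FPKM for cKO hearts. The summed level of *Ddx3y*, *Eif2s3y*, *Kdm5d* and *Uty* was 15.4 FPKM for E8.5 WT replicate 2, 12.7 FPKM for E9.5 WT replicate 2 and 9.12 FPKM for E9.5 cKO replicate 1, and at most 0.169 FPKM in the other 5 libraries. In E8.5 WT replicate 2, where *Prl8a2* was 1141 FPKM, *Xist* was at 3.48% to 4.05% of its level in the other E8.5 libraries, which had little Y-linked signal. The relation of *Xist* to the source of *Prl8a2* was not tested. *Dgcr8*, which cells outside the *Mesp1* lineage retain, was lower in E8.5 cKO replicate 1 (1.64 FPKM) than in replicate 2 (4.67 FPKM), the replicate with high *Prl8a2*, and the part of other tissue in this difference was not tested.

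**Figure D5:**
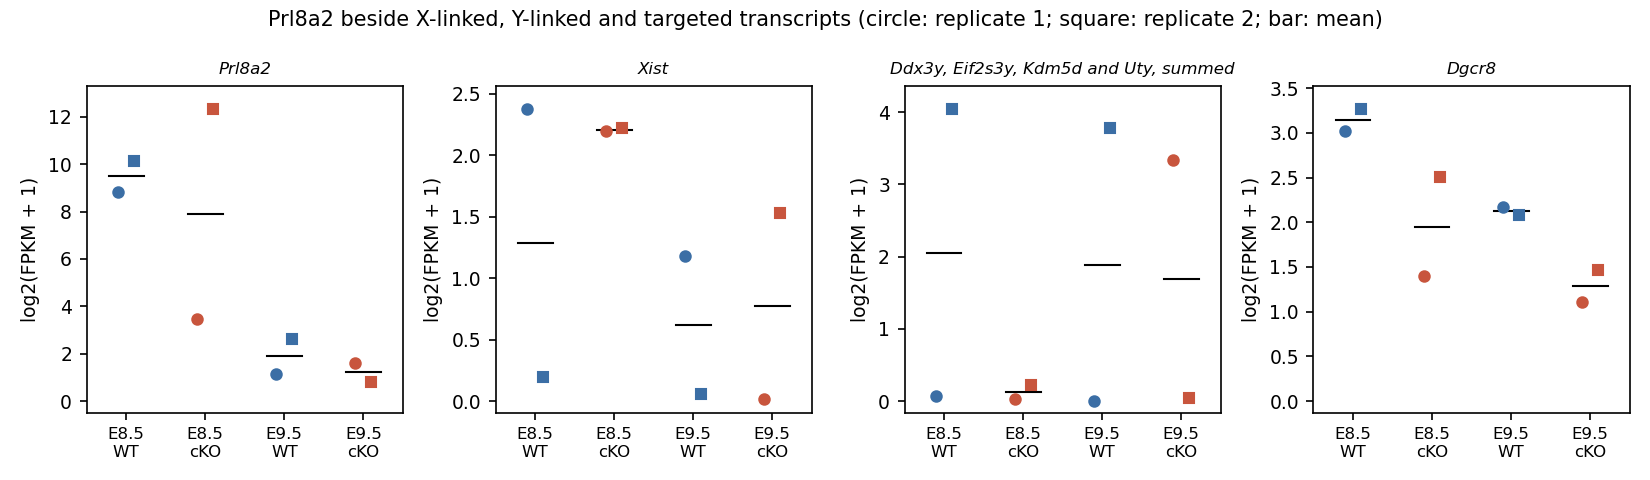
*Prl8a2*, *Xist*, the sum of 4 Y-linked genes and *Dgcr8* as log2(FPKM + 1) on the vertical axes, by group on the horizontal axes; circles are replicate 1, squares replicate 2, bars the mean of 2 libraries. In E8.5 WT replicate 2, *Prl8a2* is 1141 FPKM while *Xist* is 0.146 FPKM and the Y-linked sum 15.4 FPKM, and among the E8.5 cKO libraries *Dgcr8* is higher in replicate 2, where *Prl8a2* is 5104 FPKM.

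The genes whose levels over the 8 libraries were most like those of the 3 prolactin genes were sought by Pearson's r of log2(FPKM + 1) with the mean of the standardized prolactin values. These were *Rimklb* (r = 0.997), *Gpld1* (0.997), *Prl4a1* (0.996), *Sprr2h* (0.996) and *Ccdc155* (0.995). *Prl4a1* is itself a prolactin family gene, at 16.5 and 23.1 FPKM for E8.5 WT and 0.804 and 224 FPKM for E8.5 cKO hearts. *Sprr2h*, a small proline-rich protein gene of epithelia, was 9.01 and 22.9 FPKM for E8.5 WT, 0 and 98.7 FPKM for E8.5 cKO, and at most 0.0919 FPKM at E9.5. Nearest to the mean of *S100a8*, *S100a9* and *Lyz2* were *S100a6* (0.992), *Padi2* (0.992), *Ceacam10* (0.992), *Serpinb9b* (0.990) and *Mustn1* (0.989). *Serpinb9b*, a serine protease inhibitor gene, was 21.5 and 14.6 FPKM for E8.5 WT, 0.0909 and 78.3 FPKM for E8.5 cKO, and at most 1.01 FPKM at E9.5. These correlations over 8 libraries mostly follow the difference between stages and between the E8.5 cKO replicates, which every such gene shares. Within the 9 genes r ranged from 0.995 for *S100a8* with *Ly6a* and 0.991 for *Prl8a2* with *Prl3c1* to 0.610 for *Lyz2* with *Dbi*.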

How the data were processed

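Total RNA of E8.5 and E9.5 hearts was amplified (a SMARTer kit per the labels, Smart-seq2 per the study's methods), sequenced (Illumina HiSeq) and aligned by BWA. The authors calculated FPKM per gene and library and deposited them in a table of 8 value columns (0 were left out here). The program that made the FPKM and its use of strand were not given in the sources used here. The named build was mm9, but 91.7% of 9513 tested genes matched by symbol and chromosome started within 1000 bp of their GRCm38 start, so positions are the table's, on GRCm38 and counted from 1. Upstream sequences are from RefSeq (GRCm38.p6).

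Samples were grouped by their labels. Of each of 285 repeated symbols only the row of highest mean was used, and the 10018 genes that averaged 1 FPKM or more were tested as log2(FPKM + 1), a scale that understates changes of low genes. limma 3.58.1 in R 4.3.3 was fitted to the 4 groups in 1 model with a mean-variance trend, two-sided, with Benjamini-Hochberg adjustment over all tested genes, and was checked on simulated data. Calls required an adjusted p under 0.05 with a change of 1.5-fold or more. With 2 libraries a group, exact permutation cannot go below p = 0.333, so no such test was used. FPKM keep no counts, so no count test, counting interval or detection floor was made. The study's own test was unpaired. Scaling, the pseudocount, the filter, the libraries modelled, a replicate block and leaving out each library were varied. The 9 genes and the 18 gene lists were chosen with earlier results of these data known. Named besides them are the 5 genes with the highest correlation to the mean of the prolactin genes and the 5 with the highest correlation to that of *S100a8*, *S100a9* and *Lyz2*, *Dgcr8*, *Xist* and Y-linked genes as checks, and list genes with high mean levels or defining genes near 0. Other relatives and list genes named for their pattern were picked after their values were seen.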

Additional observations from a re-analysis of the deposited data

How the results depend on the processing

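At E9.5, 0 of the 7 tested genes were called under every alternative run, including each library left out. *S100a4*, at -0.01 as reported, changed sign with a pseudocount of 0.1 (0.432), quantile normalization (0.00788) and median-ratio scaling (0.0258), and leaving out single libraries moved it from -0.384 to 0.364, *S100a8* from -0.50 to 0.352, *Prl8a2* from -1.39 to 0.0543 and *Ly6a* from 0.0347 to 0.766. At E8.5 the count of called genes was 0 to 4 when libraries were left out, with 4 reached without cKO replicate 2, and the difference between stages was called for 0 to 1 gene. The E8.5 log2 differences then ranged from -6.03 to 2.83 for *Prl8a2*, -3.17 to 1.63 for *Prl3c1*, -1.05 to 2.50 for *Dbi*, -5.75 to 0.876 for *S100a4*, -4.90 to 0.478 for *S100a8*, -4.95 to 0.123 for *Ly6a* and -3.16 to 1.23 for *Lyz2*, and the signs at the ends were those without cKO replicate 2 and without cKO replicate 1. The number of genes lower at E9.5 without overlap, 9 in WT and 6 in cKO hearts as deposited, was 8 and 6 with quantile normalization and 7 and 5 with median-ratio scaling, and 9 in WT and 6 to 9 in cKO hearts when libraries were left out. The shares of all tested genes, 80.1% in WT and 62.7% in cKO hearts, were taken only for the deposited values. Nothing is therefore read from these numbers. With the replicate number as a block, 0 of the 7 genes were called at E9.5 and 0 at E8.5, and the log2 differences were as reported. Equally numbered libraries did not deviate together (correlation of deviations -0.00358 at E8.5 and 0.0168 at E9.5), so the numbers were not taken as pairs. Without counts, low values such as those of *S100a9* and *Prl6a1* have no known precision.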
